A study of Homo sapiens with 4 samples.

Results

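Exon peaks of protein-coding genes are stretches of RNA, recovered with an antibody against NSUN2, that the deposited annotation labels as exon in a gene of the protein-coding biotype. They were taken from the peak list of lactate-treated cells and from that of vehicle-treated cells by these 2 labels alone, with no measured value used. The lactate list held 7668 of them among 48104 peaks, on 4068 genes, and the ddH2O list held 16497 among 95785 peaks, on 6660 genes. Of the 116484 merged peaks, which join both lists and carry a read density for each immunoprecipitation (IP) library, 18697 overlapped at least 1 of these exon peaks by 1 base or more and are called merged exon peaks below. The annotation has separate labels for 3′ UTR, 5′ UTR and intron, and its exon label does not say whether the exon is translated.

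The study asked how lactate changes the RNA held by NSUN2 in pancreatic cancer cells. PANC-1, an established line from a human pancreatic ductal adenocarcinoma and wild-type here, received sodium lactate at 30 mM or ddH2O as vehicle for 24 h. RNA was pulled down with anti-NSUN2 on magnetic beads, and RNA of the lysate taken beforehand served as input, so that each of the 2 conditions has 1 IP and 1 input library. With 1 IP library per condition, every difference below compares a pair of libraries, has no replicate check, and was put to no test. All intervals are at the 95% level and cover counting error only.

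NSUN2 is a methyltransferase that places 5-methylcytosine (m5C) on tRNAs and on a subset of mRNAs. RIP-seq sequences RNA that travels with a protein through lysis and washing, so a peak marks a stretch with more reads in the IP than in its input, not the base that the protein touches. A spliced mRNA consists of exons, of which the UTRs are part, and only the labels used here set UTRs apart, whereas introns belong to the unspliced precursor. The SMART-Seq v4 kit keeps no strand, so that reads of a gene and of one on the opposite strand cannot be told apart.

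Markers of the line were looked up first. Among 6 ductal epithelial genes, 5 had an exon peak in at least 1 list, and the simple epithelial keratins KRT7, KRT8, KRT18 and KRT19 had them in both. EPCAM had 1 peak in all, a ddH2O peak in an intron. The mesenchymal genes VIM, FN1 and ZEB1 had exon peaks in the ddH2O list, and ZEB1 also in the lactate list, though its densest exon window held 6 lactate and 0 ddH2O reads. None of the 8 genes that mark leukocytes, fibroblasts or endothelium had an exon peak in either list, nor had any of the 5 that mark islet and acinar cells of the pancreas. Outside exons, PTPRC, PDGFRB and COL1A1 each had 1 peak.

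Exon peaks formed a similar share of both lists, slightly larger in the ddH2O list. They made up 15.9% of the lactate list (Wilson interval 15.6% to 16.3%) and 17.2% of the ddH2O list (17.0% to 17.5%). The ddH2O list had 2.15 times as many exon peaks as the lactate list, against 1.99 times for all peaks, 1.91 times for introns and 1.67 times for 3′ UTRs of protein-coding genes. For 5′ UTRs the ratio was higher than for exons, at 2.41 times. The number of peaks called depends on the depth of IP and input, and the depth of the input libraries is unknown.

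Single exon peaks stood out from input by about as much in either list. The fold over input, a ratio of IP over input signal deposited for each peak, had a median of 3.64 for lactate (quartiles 2.73 and 5.31) and of 3.52 for ddH2O (2.43 and 5.46). These medians equalled or nearly equalled those of 3′ UTR peaks, at 3.64 and 3.51, and lay above those of intron peaks, at 3.24 and 3.03. Exon peaks had a q-value below 0.05 in 55.9% of cases for lactate and 62.5% for ddH2O, against 35.1% and 41.8% of intron peaks and 65.0% and 70.6% of 3′ UTR peaks. The median exon peak was 280 bases long for lactate and 327 for ddH2O. Many folds took the same few values: 7 evenly spaced values from 2.21 to 5.31 held 31.8% of lactate exon peaks, and 7 from 1.82 to 5.46 held 33.0% of ddH2O exon peaks.

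Most exon peaks of the shorter list recurred in the longer one. Of the lactate exon peaks, 71.1% overlapped a ddH2O exon peak by at least 1 base (Wilson interval 70.1% to 72.1%). Of the ddH2O exon peaks, 32.6% overlapped a lactate exon peak (31.9% to 33.3%). Over whole lists, 56.4% of lactate peaks and 27.8% of ddH2O peaks overlapped a peak of the other list, and of the exon peaks 74.2% and 36.4% did so when a peak of any region counts. Counted as genes, 3520 had an exon peak in both lists, which is 86.5% of the lactate genes and 52.9% of the ddH2O genes. A further 548 genes had one in the lactate list alone and 3140 in the ddH2O list alone. Of all protein-coding genes with a peak in any region, 94.3% of the lactate ones and 76.0% of the ddH2O ones had a peak in both lists.

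Among genes with enough reads, being listed in 1 condition alone often went with a difference in density of less than 2-fold. Each gene was followed in its densest merged exon peak, and only genes with at least 20 reads there over both IP libraries were compared. Reads were counted in a window of 2 kb around the summit and were computed back from the deposited densities. Of the 3140 genes listed for ddH2O alone, 1210 passed that minimum, with a median of 21 lactate and 47 ddH2O reads, and 392 of them (32.4%) were over 2-fold lower with lactate by the deposited densities, against 16.4% of all exon genes with enough reads. Of the 548 listed for lactate alone, 181 passed, with medians of 27 and 29 reads, and 25 (13.8%) were over 2-fold higher, against 2.25% of all. The lists thus separate many genes whose densities differed by less than 2-fold, and a gene called in 1 library had to have reads there.

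Exon peaks were spread thinly over many genes and thickly over a few. In the lactate list 2487 genes (61.1%) had 1 exon peak and 28 had 10 or more. In the ddH2O list 3196 genes (48.0%) had 1, and 186 had 10 or more, the latter holding 14.4% of all exon peaks. DST, which encodes the cytoskeletal linker dystonin, led with 33 lactate and 42 ddH2O exon peaks. MACF1, a linker of actin and microtubules, had 12 and 35. TPR, the scaffold of the nuclear pore basket, had 17 and 26, and BDP1, a subunit of an RNA polymerase III initiation factor, had 13 and 29.

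The other genes with most exon peaks had several roles. The centrosomal protein CEP350 had 16 lactate and 22 ddH2O exon peaks, and PCM1, the organiser of centriolar satellites, had 13 and 20. CENPF, a kinetochore protein of dividing cells, had 15 and 19. The remaining genes were PRRC2C, a protein of stress granules, with 15 and 19, the bromodomain protein BAZ2B with 12 and 21, and BOD1L1, which protects stalled replication forks, with 13 and 19. In all 10 genes the ddH2O list held more exon peaks than the lactate list, 252 against 159 in sum, which is 1.58 times as many where all exon peaks differ by 2.15 times.

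**Figure D1:**
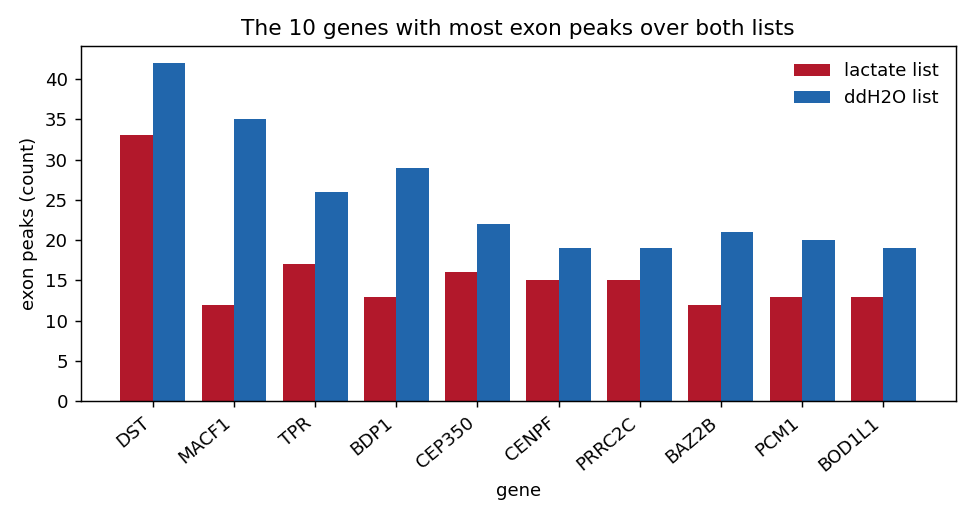
Number of exon peaks (count, vertical axis) in the lactate and ddH2O lists for the 10 genes with most exon peaks over both lists. DST has 33 and 42, and the blue ddH2O bar is the taller one for every gene shown.

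Genes with exon peaks had a longer median span than all genes, and their exon peaks leaned to the 3′ end of the span. Where the annotated exons of these genes lie on the span was not computed. The median gene span, from RefSeq on GRCh38.p14 and counted once per gene, was 45.2 kb for lactate exon genes and 42.8 kb for ddH2O exon genes, against 24.1 kb for all 20056 protein-coding genes. Genes with other peaks were long too, at 37.4 and 39.2 kb for 3′ UTR peaks and 73.0 and 63.2 kb for intron peaks. Of the exon peaks, 97.9% and 97.8% lay on the span of their gene. Measured from the 5′ end, the median summit lay at 68.2% of the span for lactate and at 65.2% for ddH2O. The last 10% of the span held 22.6% of lactate exon peaks and 19.6% of ddH2O exon peaks, and the first 10% held 7.09% and 8.07%. By comparison, intron peaks had a median position of 44.3% and 45.4%, and 3′ UTR peaks one of 96.1% and 94.5%.

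**Figure D2:**
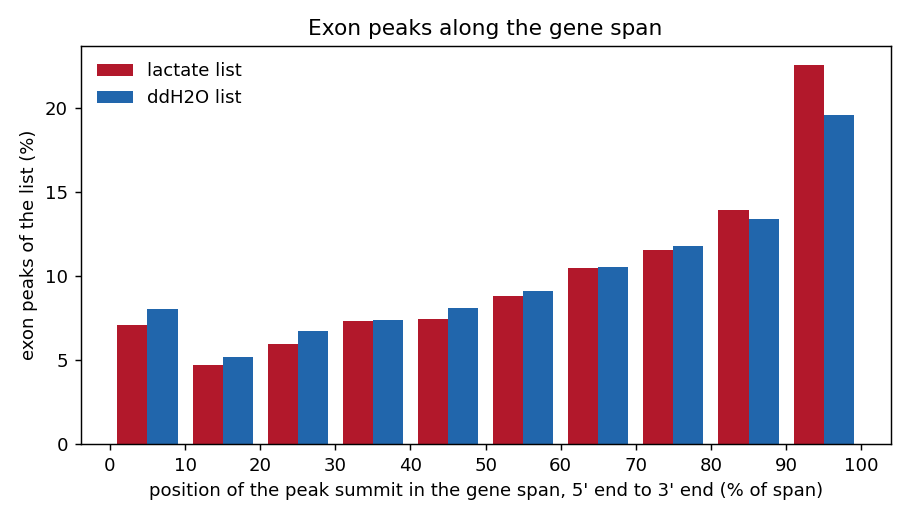
Share of exon peaks (%, vertical axis) by the position of the summit in the gene span from 5′ end to 3′ end (% of span), in 10 equal bins for each list. The last bin is the highest in both lists, with 22.6% for lactate and 19.6% for ddH2O.

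Many exon genes carried other peaks too. Of the genes with a lactate exon peak, 56.2% also had an intron peak, 40.5% a 3′ UTR peak and 7.08% a 5′ UTR peak, and 29.1% had peaks in exons alone. For the ddH2O list these shares were 63.8%, 51.5%, 12.7% and 20.9%.

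Read densities were then compared between the IP libraries. The deposited density is in reads per kb of the window after a normalization by MAnorm, which takes off a straight line fitted to the log2 ratio against the mean density. A second scaling divided the reads of each window by the library's sum over all windows, outside the 2 windows with most reads, after adding 1 read. These sums were 1945000 reads for lactate and 3536821 for ddH2O, so that 1 lactate read weighs 1.82 ddH2O reads. The 2 windows left out hold 80.1% of the lactate window reads and 63.0% of the ddH2O window reads. With them the sums are 9756054 and 9553835, a lactate read weighs 0.979 ddH2O reads, and every ratio by library sums is lower by 0.89 on the log2 scale. That alternative, added after the data had been seen, gives a median of -1.03 for merged exon peaks and -0.77 for all merged peaks, so the direction of many ratios depends on this choice. The difference from all merged peaks is the same by construction. Neither scaling can show a difference in bound RNA shared by all windows. Over all 37925 merged peaks with at least 20 reads, the median log2 ratio of lactate over ddH2O was -0.20 with the deposited densities and 0.13 with library sums, a shift of 0.32, and values for exon peaks are read against these medians.

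Merged exon peaks leaned to lower density with lactate, more than merged peaks in general. At least 20 reads over both IP libraries were found in 8361 of the 18697, with a median of 23 lactate and 45 ddH2O reads, and median densities of 14.1 and 19.8 reads per kb. With the deposited densities the median log2 ratio was -0.39 (quartiles -0.93 and 0.07), which is -0.19 relative to all merged peaks. With library sums it was -0.14, or -0.26 relative to all merged peaks. With no minimum of reads, the values relative to all merged peaks were -0.026 and -0.20, so that with the deposited densities this lean is seen only where few-read windows are left out.

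Counts past 2-fold showed the same lean where windows had at least 20 reads, but depended on the scaling and on that minimum. With the deposited densities, 1883 merged exon peaks (22.5%) were over 2-fold lower with lactate, against 18.6% of all merged peaks, and 179 (2.14%) were over 2-fold higher, against 7.65%. With library sums, 959 (11.5%) were lower, against 8.77% of all, and 575 (6.88%) were higher, against 17.0%. Of the exon peaks past 2-fold, 8.68% were thus the higher ones with the deposited densities and 37.5% with library sums, while the same shares over all merged peaks were 29.2% and 66.0%. Counted as genes in their densest merged exon peak, 710 of 4318 (16.4%) were over 2-fold lower and 97 (2.25%) higher with the deposited densities, and 336 (7.78%) were lower and 301 (6.97%) higher with library sums. With no minimum of reads, the share of merged exon peaks over 2-fold lower was below that of all merged peaks. It was 36.0% against 38.6% with the deposited densities and 17.7% against 20.5% with library sums. The shares over 2-fold higher were 6.46% against 13.9% and 15.1% against 24.5%.

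Where a merged peak had been called bore on its ratio. The 4852 merged exon peaks called in both lists and having at least 20 reads had a median log2 density ratio of -0.23, the 3053 called for ddH2O alone one of -0.83, and the 456 called for lactate alone one of 0.23. A peak called in 1 library alone was chosen for its reads there, so the last 2 values are partly fixed by that choice. Among merged peaks called in both lists, the median over all regions was -0.03.

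Exons and introns of protein-coding genes had different medians in both scalings where windows had at least 20 reads. With the deposited densities the median log2 ratio was -0.39 for exon, -0.22 for 3′ UTR and -0.04 for intron merged peaks, and with library sums it was -0.14, -0.02 and 0.45. For 5′ UTR merged peaks it was -0.46 and -0.13, so the lean of exons was not particular to them. With no minimum of reads, exons had -0.52 and introns -0.47 with the deposited densities, a gap of little size, and -0.13 and 0.28 with library sums. Introns had 12.9% of their merged peaks over 2-fold higher with lactate by the deposited densities, against 2.14% for exons. Among merged peaks called in both lists the medians were -0.23 for exon and 0.13 for intron, and among those with no neighbouring window they were -0.42 and -0.10. These comparisons, the read bins and the values within genes that follow were added after the data had been seen.

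**Figure D3:**
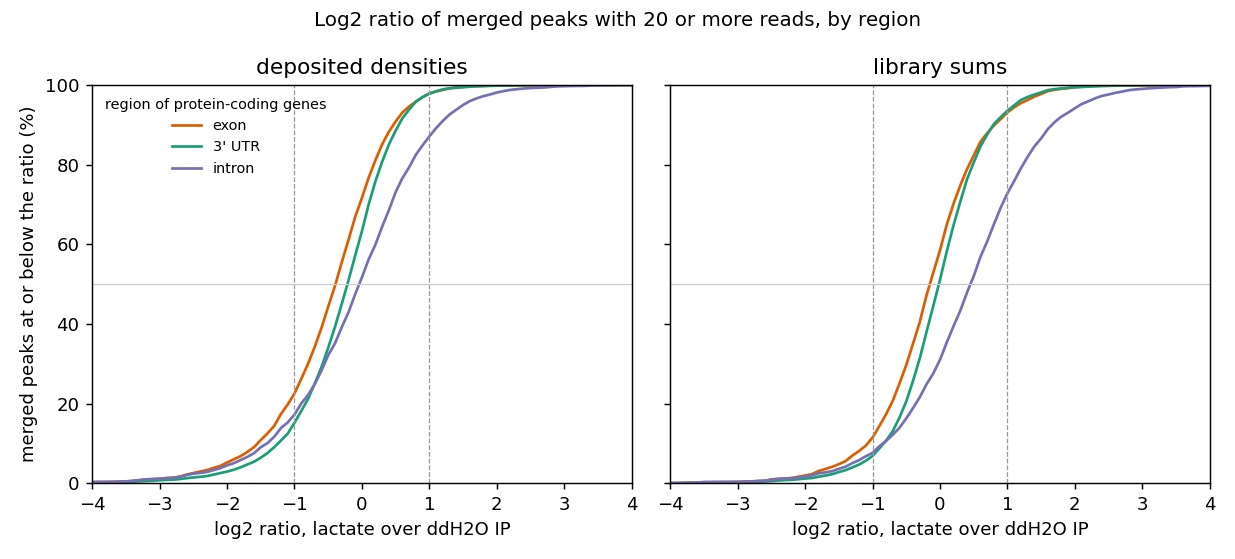
Cumulative share (%, vertical axis) of merged peaks with 20 or more reads at or below each log2 ratio of lactate over ddH2O IP, for exon, 3′ UTR and intron merged peaks of protein-coding genes, with deposited densities on the left and library sums on the right. Dashed lines mark 2-fold, and in both panels the intron curve lies to the right of the exon curve at the 50% line, with medians of -0.04 and -0.39 on the left and 0.45 and -0.14 on the right.

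The gap between exons and introns was also computed within bins of reads. Between 20 and 50 reads the median log2 density ratio was -0.60 for 3276 exon peaks and -0.10 for 12028 intron peaks. Between 100 and 200 reads it was -0.40 for 1327 exon and 0.15 for 750 intron peaks, and between 200 and 500 reads -0.24 for 1175 and 0.21 for 188. Between 500 and 1000 reads the gap was smaller, with -0.02 for 436 exon and 0.21 for 23 intron peaks, and at 1000 reads or more it was 0.11 for 308 and 0.64 for 7. The exon medians moved up with depth under the deposited densities, and under library sums went from -0.04 in the lowest bin to -0.30 in the highest, without falling at every step. The sign of the median over the densest exon windows therefore differed between the scalings.

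The gap was also seen inside single genes. In 1694 genes with both an exon and an intron merged peak of at least 20 reads, the median exon ratio minus the median intron ratio had a median of -0.29 on the log2 scale with the deposited densities and -0.43 with library sums, and the exon value was the lower one in 62.5% and 68.3% of the genes. Restricted to 932 genes with merged peaks called in both lists, the medians were -0.33 and -0.53. Against 3′ UTRs, over 1779 genes, the same difference was -0.09 with the deposited densities and 0 with library sums, so the order of exon and 3′ UTR within genes was not kept by both scalings. The merged peaks of a gene share its RNA and are not replicates. Whether precursor RNA differed between the lysates was not tested.

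The genes with the densest exon windows had several roles. HSP90AA1, a cytosolic chaperone, had the highest mean density, with 4049 lactate reads (exact Poisson interval 3925 to 4176) and 10792 ddH2O reads (10589 to 10998) in the window of its merged exon peak on chromosome 14, from 102084746 to 102086118 on GRCh38. FBL, the nucleolar rRNA methyltransferase fibrillarin, followed with 4183 and 8586 reads. NUCKS1, a chromatin-associated phosphoprotein, had 3921 and 7329, and MAP1B, a microtubule-associated protein, had 2924 and 7510. KRT18 had 2737 and 8085 reads, and RACK1, a scaffold on the small ribosomal subunit, had 3203 and 6586.

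Other genes among the densest were ATF4, a transcription factor of the stress response, with 3024 and 6941 reads, LRRFIP1 with 3127 and 5487, and the chaperone HSP90AB1 with 2847 and 6059. All of the 10 densest genes had more ddH2O reads than lactate reads. Their log2 density ratios ran from 0.12 to 0.84, all above 0, but with library sums they ran from -0.70 to 0.05, with 9 of 10 below 0. None was past 2-fold in either scaling. Their folds over input varied: the highest fold of an exon peak of HSP90AA1 in the lactate list was 2.93 and that of ATF4 was 1.29, while HSP90AB1 reached 11.4 and MAP1B 34.0. Over all lactate exon peaks, a fold of at least 10 was found in 23.7% of the 38 with 1000 or more lactate reads and in 1.32% of those with fewer than 10. The rise was not steady, with 15.3% at 50 to 200 reads and 12.2% at 200 to 1000. In the ddH2O list the share was 1.46% under 10 reads, 17.6% at 50 to 200 and 16.8% at 1000 or more. Several of the densest genes have processed pseudogenes, with which their reads may be shared.

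**Figure D4:**
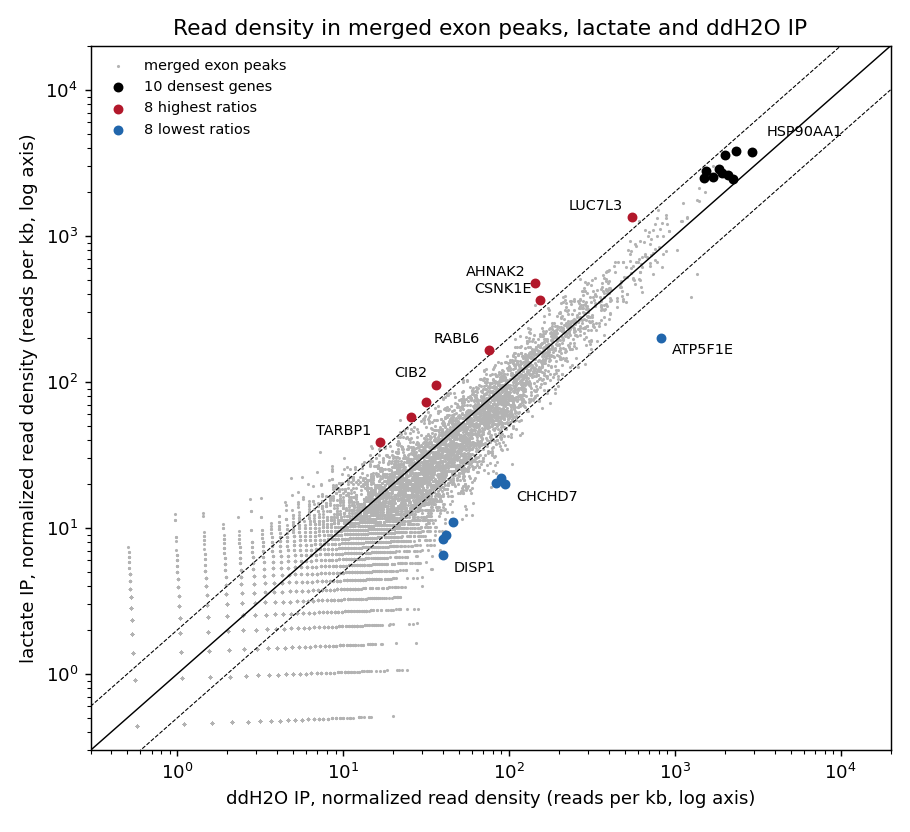
Normalized read density (reads per kb, log axes) of each merged exon peak in the ddH2O IP (horizontal) and the lactate IP (vertical), with the 10 densest genes in black and the 8 genes with the highest and lowest ratios in red and blue. The solid line marks equal density and the dashed lines 2-fold, and ATP5F1E lies far below the line at 200 against 830 reads per kb.

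Among genes with at least 100 reads in the densest exon window, the 8 lowest ratios were past 2-fold in both scalings. ATP5F1E, the epsilon subunit of mitochondrial ATP synthase, had by far the most reads among them, 258 in the lactate IP (exact Poisson interval 227 to 291) and 2567 in the ddH2O IP (2469 to 2668), in a merged peak on chromosome 20 from 59030137 to 59030502. Its log2 ratio was -2.05 with the deposited densities and -2.45 with library sums (exact binomial interval -2.64 to -2.27). CHCHD7, a small protein of the mitochondrial intermembrane space, had 30 and 242 reads and a log2 density ratio of -2.26. The lowest ratio, -2.62, was that of DISP1, which helps release hedgehog ligands, from 10 and 93 reads.

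The others had fewer reads than ATP5F1E as well. ARCN1, the delta subunit of the COPI vesicle coat, had 13 lactate and 95 ddH2O reads. PLK2, a polo-like kinase, had 14 and 99, and SRFBP1, a binding partner of serum response factor, had 17 and 110. ADSL, adenylosuccinate lyase of purine synthesis, had 33 and 230, and HACD3, a dehydratase of fatty acid elongation, had 31 and 212. In 6 of the 8 genes the lactate list held no exon peak, as in 3140 of all 7208 genes with an exon peak. The 8 were chosen for their low ratios, so a missing lactate peak follows in part from that choice. With library sums the 8 log2 ratios ran from -2.45 to -1.76.

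The 8 highest ratios were smaller in size. AHNAK2, a giant scaffold protein, led with 638 lactate reads (exact Poisson interval 589 to 689) and 426 ddH2O reads (387 to 468), a merged peak on chromosome 14 from 104953391 to 104954582. Its log2 ratio was 1.73 with the deposited densities and 1.44 with library sums (exact binomial interval 1.27 to 1.63). The second merged exon peak of the gene had a log2 density ratio of 0.41. LUC7L3, a splicing factor associated with U1 snRNP, had 1633 and 1818 reads and a log2 ratio of 1.29, which became 0.71 with library sums, no longer past 2-fold.

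The remaining 6 were regulators of several kinds. CSNK1E, a casein kinase of the circadian clock and Wnt signaling, had 488 lactate and 456 ddH2O reads, and its log2 ratio of 1.22 became 0.96 with library sums. RABL6, a Rab-like GTPase, had 238 and 210 reads, CIB2, a calcium and integrin binding protein, 145 and 95, and KMT2B, a histone methyltransferase, 112 and 81. GNL3L, a nucleolar GTPase, had 90 and 64 reads, and TARBP1, a tRNA methyltransferase, 62 and 40. With library sums 6 of the 8 stayed past 2-fold, and the range was 0.71 to 1.48. The merged peak of CIB2 also overlapped a peak with another label.

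Windows with 1000 reads or more were looked at separately, since counting error is least there. There were 308 such exon windows on 228 genes, and 10 of them were over 2-fold lower and 1 over 2-fold higher with library sums, against 4 and 3 with the deposited densities. Of all merged peaks with at least 20 reads, 8.77% were lower and 17.0% higher with library sums, and 18.6% and 7.65% with the deposited densities. These shares include windows with far fewer reads and are not matched in depth. By the deposited densities 34.4% of exon windows with 20 to 50 reads were lower and 3.82% higher, against 1.30% and 0.97% at 1000 or more. Of 355 3′ UTR windows with 1000 reads or more, 2 were lower and 10 higher with the deposited densities. No such count with library sums is given for them. Among the 308 exon windows ATP5F1E was lowest, followed by both windows of EIF1, which selects the start codon in translation initiation, with 472 and 666 lactate reads and 4027 and 4488 ddH2O reads. The EIF1 windows overlap, and their log2 density ratios were -1.70 and -1.31. DKC1, the pseudouridine synthase of the box H/ACA particle, had 182 and 839 reads and was the other window past 2-fold lower in both scalings, at -1.12 and -1.34. AHNAK2 was the window past 2-fold higher in both.

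The exon peaks furthest above input lay in genes of different roles. In the lactate list the highest fold over input at a q-value below 0.05 was 48.0, in MAP4K4, a kinase upstream of JNK, where the overlapping ddH2O peak had 29.0. KMT2B followed with 43.5 against 20.9, and VGLL4, a cofactor of TEAD transcription factors, with 43.2 against 12.0. CHD5, a chromatin remodeler, had 42.0 against 18.7, and KAT6B, a histone acetyltransferase, 41.0 against 21.6.

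In the ddH2O list the highest fold was 78.5, in SLC5A3, a transporter of myo-inositol, where the overlapping lactate peak had 19.6. ANKRD17, an ankyrin repeat protein, had 73.2 against 14.2, SMARCC1, a core subunit of BAF chromatin remodelers, 61.3 against 23.9, and DSP, the desmosomal plaque protein desmoplakin, 55.9 against 8.98. SUPT16H, a subunit of the histone chaperone FACT, had 53.0 against 15.8. In each list these peaks were chosen for being highest there, so a lower fold in the other list follows in part from that choice. Their densities differed less: of these 10 peaks, KMT2B alone was past 2-fold by the deposited densities, and the log2 density ratio of SLC5A3 was 0.47 from 201 and 282 reads. With library sums CHD5 was past 2-fold as well, at 1.45, though its 11 and 7 reads lie under the minimum of 20.

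Exon windows of 1 long gene did not all share a ratio. DST had 46 merged exon peaks, of which 30 had at least 20 reads, and their log2 density ratios ran from -3.74 to 1.12 with a median of -0.47, with 6 over 2-fold lower and 1 over 2-fold higher, or 4 and 4 with library sums. In BAZ2B 7 of 11 such windows were over 2-fold lower with a median of -1.23, and in PCM1 6 of 12 with a median of -1.03, which became 5 and 1 with library sums. CENPF had 2 of 19 over 2-fold lower, with a median of -0.32, and 0 with library sums. Over all merged exon peaks 22.5% were lower with the deposited densities and 11.5% with library sums. CENPE, the kinetochore motor of mitosis, was singled out after its values were seen: all 18 windows with at least 20 reads lay below 0, with log2 density ratios from -2.23 to -0.25, and 12 were over 2-fold lower. With library sums all 18 stayed below 0 and 7 were over 2-fold lower. Neighbouring windows share reads, so these are not independent measurements.

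Gene lists were described by the densest exon window of each member, beside the 4318 genes with an exon peak and at least 20 reads, whose median log2 ratio was -0.26 with the deposited densities and -0.08 with library sums. Of 20 lists, 12 had a median below 0 in both scalings, 3 above 0 in both, and 5 changed sign between them. Against all genes, 6 lists lay above and 7 below in both scalings. Exon peaks were found on 7208 genes, of which 7101 matched one of the 20056 protein-coding genes of RefSeq. The 7208 come to 35.9% of the 20056, a share slightly too high because of the unmatched genes. It is the one to hold beside the member counts below. No list was tested. Members named as past 2-fold in the paragraphs on lists are so by the deposited densities. Of all 4318 genes, 16.4% were over 2-fold lower and 2.25% higher in that scaling, the shares to hold beside such members.

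Lists of protein synthesis genes lay below all genes in both scalings, except cytosolic ribosomal proteins, which lay above them with the deposited densities. Exon peaks were found in 22 of 86 cytosolic ribosomal protein genes, and the 20 with enough reads had a median log2 ratio of 0.08, which became -0.18 with library sums, with none past 2-fold in either scaling. Among their densest members were RPL11 with 1197 lactate and 2826 ddH2O reads, and RPL28 with 1331 and 2173. Mitochondrial ribosomal proteins had exon peaks in 50 of 78 genes, with a median of -0.38 over 35 and of -0.34 with library sums. Of these 35, 7 were over 2-fold lower, a share near the 16.4% of all genes, and 4 with library sums, where 7.78% of all genes were. MRPL20, with 80 and 319 reads, was among the 7, and MRPS11 was higher with 30 and 11. The densest were MRPS12, MRPS18B and MRPS10, with log2 density ratios of 0.12, -0.18 and 0.20.

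Translation initiation and elongation factors had exon peaks in 53 of 75 genes, with a median of -0.37 over 39 and of -0.24 with library sums. Of the 39, 9 (23.1%) were over 2-fold lower, against 16.4% of all genes, and 0 higher, and with library sums 7 were lower and 0 higher, where 7.78% of all genes were lower and 6.97% higher. Besides EIF1 these included the RNA helicase EIF4A3, with 43 lactate and 218 ddH2O reads, and EIF4G2, a scaffold of cap-independent initiation, with 23 and 107. EEF1G, with 1576 and 2960 reads, and EIF5B, which joins the ribosomal subunits, with 961 and 3397, were the densest beside EIF1 and not past 2-fold. All 20 cytosolic aminoacyl-tRNA synthetases had an exon peak, and the 17 with enough reads had a median of -0.38, or -0.43 with library sums. KARS1 and NARS1 (11.8%, against 16.4% of all genes) were over 2-fold lower, with 62 and 234 and with 37 and 164 reads. IARS1 (5.88%, against 2.25% of all genes) was higher with 31 and 20. MARS1, YARS1 and EPRS1 were the densest, with log2 density ratios of -0.19, -0.40 and -0.18.

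Among genes of protein folding and degradation, proteasome subunits and E3 ligases lay on different sides of all genes in the 2 scalings. Chaperones had exon peaks in 49 of 92 genes, with a median of -0.35 over 37, or -0.33 with library sums, and DNAJC7, CCT5 and DNAJC25 (8.11%, against 16.4% of all genes) were over 2-fold lower. HSP90B1, the chaperone of the endoplasmic reticulum, came after HSP90AA1 and HSP90AB1 in density, with 868 lactate and 1963 ddH2O reads. Proteasome subunits had them in 27 of 39 genes, with a median of -0.22 over 21, or -0.49 with library sums, and PSMA6 and PSMB10 (9.52%) were over 2-fold lower. The densest were PSMC4, with 954 and 2910 reads, PSMD13 and PSMD11. E3 ligases and their scaffolds had them in 95 of 219 genes, with a median of -0.36 over 57 that became 0.01 with library sums, and 11 lower (19.3%, against 16.4% of all genes) and 2 higher, which became 5 and 5 with library sums, close to the 7.78% and 6.97% of all genes. FBXO17, TRIM28 and RNF20 were densest there, with log2 density ratios of 0.52, 0.39 and -0.36.

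Lists of energy metabolism differed by pathway with the deposited densities. Nuclear genes of oxidative phosphorylation had exon peaks in 38 of 81 genes, with a median of -0.33 over 28 and of -0.34 with library sums, and 3 (10.7%, against 16.4% of all genes) were over 2-fold lower, namely ATP5F1E, NDUFA8 and NDUFS7. With library sums ATP5F1E was the 1 member over 2-fold lower and 1 member was higher, where 7.78% and 6.97% of all genes were. The ATP synthase subunits ATP5F1B, with 1549 lactate and 4012 ddH2O reads, and ATP5ME, with 754 and 2728, were also dense and not past 2-fold. Glycolytic enzymes and lactate transporters had exon peaks in 9 of 20 genes. Over 6 the median was 0.20, which turned to -0.13 with library sums. ENO1, ALDOA and PFKP, with 1339 and 2720, 1117 and 2136, and 343 and 670 reads, were not past 2-fold, and PKM was over 2-fold lower from 7 and 25 reads. The merged peak of ENO1 also overlapped a peak with another label.

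Lists of the cytoskeleton and of cell contacts lay above all genes in both scalings where windows had at least 20 reads, that of integrins, laminins and collagens by little. Giant cytoskeletal and scaffold proteins had exon peaks in 33 of 36 genes, which held 173 lactate and 329 ddH2O exon peaks. Their median was -0.02 over 27, and 0.20 with library sums, with AHNAK2 the 1 member past 2-fold by the deposited densities, while with library sums 6 were over 2-fold higher and 0 lower, against 6.97% and 7.78% of all genes. MKI67, the marker of dividing cells, was densest, with 1293 and 2292 reads. The values of this list rest on the densest window of each gene, where CENPF had 0.22, CENPE -0.44 and AHNAK2 1.73 with the deposited densities. Over all windows with at least 20 reads their medians were lower, at -0.32, -1.35 and 1.07. Tubulins, actins and keratins, with VIM and a few actin-binding proteins, had a median of 0.20 over 13, and 0.11 with library sums. In this list the densest were KRT18, KRT8 with 1592 and 4024 reads, and TUBB with 1656 and 2971, and ACTN1, an actin cross-linker that the list includes, was higher from 17 and 7 reads.

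Adherens junction genes had a median of 0.37 over 7 members, and 0.43 with library sums, but of -0.24 with no minimum of reads and of 0.00 at 50 reads. NECTIN2, with 115 lactate and 156 ddH2O reads, AFDN, with 99 and 175, and IQGAP1, with 56 and 135, were the densest, and NECTIN3 was over 2-fold lower from 13 and 52 reads, while ACTN1, also a member here, was higher. Integrins, laminins and collagens had a median of -0.18 over 17, or -0.02 with library sums, which is 0.08 and 0.06 above all genes. With no minimum of reads the median was -0.45. LAMA5, COL18A1 and ITGB1 were densest, and LAMB1 was over 2-fold lower from 55 and 248 reads.

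In the signaling lists the members past 2-fold held few reads. Neurotrophin and axon guidance genes, which bear on growth along nerves, had exon peaks in 21 of 47 genes, with a median of 0.01 over 13 and 0.16 with library sums, but of -0.16 with no minimum of reads. The adaptor GRB2 had 186 lactate and 324 ddH2O reads, the semaphorin receptor PLXNB2 105 and 171, and the ephrin receptor EPHB2 117 and 139. PLXNB1 and SORT1 (15.4%, against 16.4% of all genes) were over 2-fold lower, from 1 and 36 and from 6 and 27 reads. RAS, MAP kinase and receptor tyrosine kinase genes had a median of 0.02 over 10, -0.02 with library sums and -0.27 with no minimum of reads. EGFR had 318 and 684 reads, MAP2K2 127 and 201, and MET 48 and 149. By the deposited densities 2 of the 10 were over 2-fold higher and 2 lower (20% each), where all genes had 2.25% and 16.4%. With library sums 3 were higher and 2 lower, where all genes had 6.97% and 7.78%. Of these members, MYC was higher, from 22 and 2 reads, and MAPK9 lower, from 2 and 19.

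ZNF genes, the largest family of transcription factors, had exon peaks in 211 of 509 genes. Over 112 the median was -0.48, or -0.16 with library sums. By the deposited densities 36 (32.1%) were over 2-fold lower, against 16.4% of all genes, and 4 (3.57%) higher, against 2.25%, and with library sums these counts were 17 and 10, where all genes had 7.78% lower and 6.97% higher. Their median window held 16 lactate and 30 ddH2O reads. Of all merged exon peaks between 20 and 50 reads, 34.4% were over 2-fold lower and 3.82% higher by the deposited densities. At a minimum of 50 reads the median of the ZNF list was -0.22. The 3 densest, ZNF652, ZNF106 and ZNF644, had log2 density ratios of 0.62, 0.00 and -0.08. Splicing factors of the hnRNP and SR families had a median of -0.17 over 17, or -0.16 with library sums, with SRSF11, SRRM2 and SF3B2 densest and SRSF3 over 2-fold lower from 6 and 52 reads. Replication-dependent histones had exon peaks in 9 of 68 genes, and H4C3 alone of them was dense, with 697 and 1726 reads. Their median of -1.06, or -0.75 with library sums, rested on 4 genes. Of these, H1-4 and H1-3 (50%, against 16.4% of all genes) were over 2-fold lower, from 4 and 18 and from 3 and 17 reads. At a minimum of 50 reads the median of the histones was -0.17, and with no minimum -1.74.

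**Figure D5:**
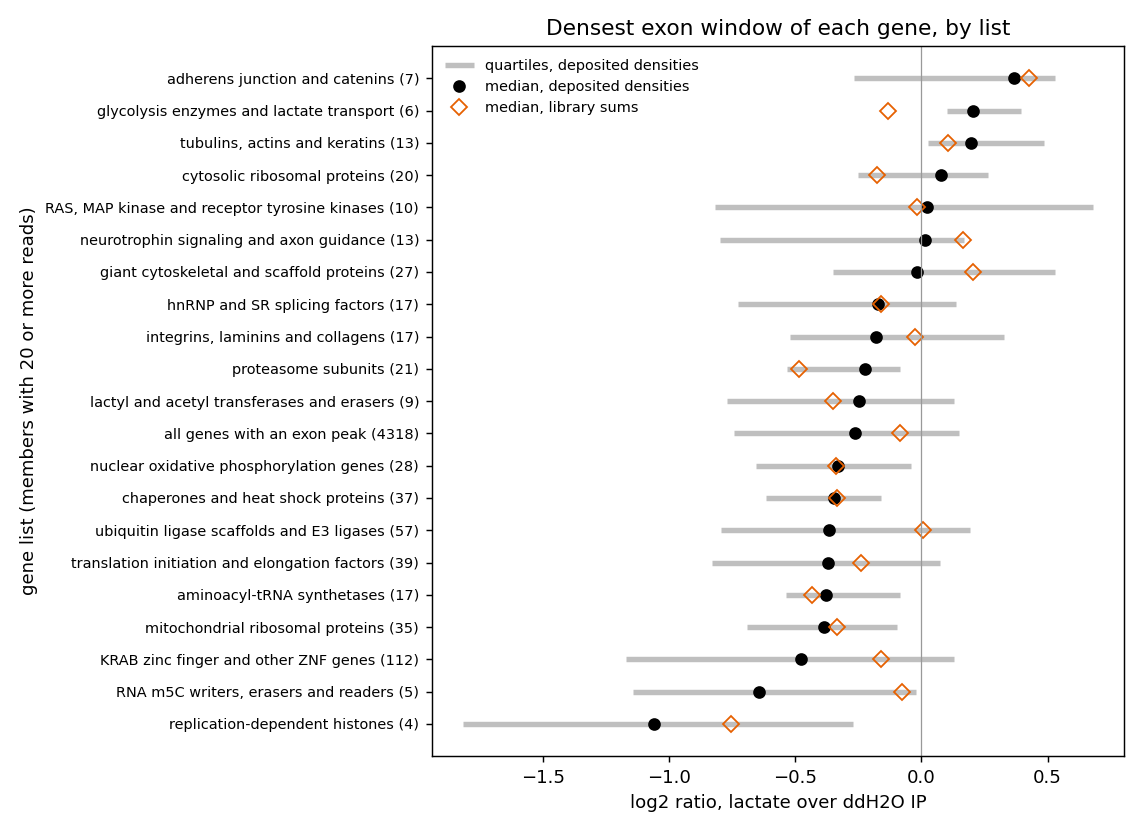
Median log2 ratio of lactate over ddH2O IP in the densest exon window of each gene, per gene list, with the number of members with 20 or more reads in parentheses. Black points and grey bars are medians and quartiles with the deposited densities and open diamonds are medians with library sums, and all genes lie at -0.26 and -0.08, while 5 lists change sign between the scalings.

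Writers, erasers and readers of m5C, and enzymes that add or remove lactyl and acetyl groups, are the machinery the treatment and the antibody bear on. Of 18 m5C genes, 9 had an exon peak and 5 had enough reads, with a median of -0.64 that became -0.08 with library sums. At a minimum of 50 reads the median was 0.02, and with no minimum -1.22. The reader YTHDF2 had 204 lactate and 392 ddH2O reads, the oxidase TET2 41 and 63, and the reader ALYREF 10 and 20. The other exon window of YTHDF2 had 26 and 109 reads and was over 2-fold lower, with a log2 ratio of -1.43, or -1.16 with library sums. NSUN6 and TET1 were over 2-fold lower from 7 and 20 and from 6 and 18 reads, and neither with library sums. They were 2 of the 5 members (40%), against 16.4% of all genes. The merged peak of TET1 also overlapped a peak with another label. NSUN2 itself had 2 exon peaks in the ddH2O list and 0 in the lactate list, with 0 and 2 reads in 1 window and 1 and 1 in the other, so no ratio is given. FMR1, with 2 and 12 reads, NSUN3, with 0 and 4, and NSUN7, with 0 and 3, were also under the minimum. Among the transferases and erasers of acyl groups, 9 members had a median of -0.25, or -0.35 with library sums. HDAC2 had 315 and 829 reads, AARS1 145 and 293 and CREBBP 138 and 183, and KAT2A was over 2-fold lower from 26 and 90. With library sums the log2 ratio of KAT2A was -0.89. In that scaling 1 member was over 2-fold higher and 0 lower, where 6.97% and 7.78% of all genes were.

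Of the genes the study follows, CDCP1, a transmembrane glycoprotein, had exon peaks in both lists, 3 for lactate and 4 for ddH2O, with folds over input of up to 30.1 and 18.2. Its 4 merged exon peaks held 37, 75, 21 and 24 lactate reads and 25, 104, 21 and 11 ddH2O reads, in the order of their coordinates on chromosome 3. Their log2 density ratios were 1.01, 0.25, 0.38 and 1.38, so that 2 were over 2-fold higher. With library sums they were 1.41, 0.40, 0.86 and 1.92. Over all merged exon peaks with at least 20 reads, 2.14% were over 2-fold higher with the deposited densities and 6.88% with library sums. Of the 4 merged exon peaks of CDCP1, the third also overlapped a peak with another label. The densest of them, from 45090991 to 45091563, was not past 2-fold in either scaling (exact binomial interval with library sums -0.06 to 0.83). FOSL1, a subunit of the AP-1 transcription factor, had 5 peaks in each list, of which 0 were exon peaks. ENO1, the glycolytic enzyme enolase, was looked up as well, though the study does not follow it in these cells. It had 1 lactate and 3 ddH2O exon peaks, and its log2 ratio of 0.44 turned to -0.16 with library sums. The merged peak behind this ratio also overlapped a peak with another label.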

How the data were processed

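Anti-NSUN2 RIP-seq of PANC-1 cells gave 1 IP and 1 input library per condition, grouped by the sample labels. The submitters' processing notes name fastp 0.20.1, HISAT2 2.1.0, MACS2 2.2.7.1, bedtools 2.29.2, HOMER 4.11.1, DiffBind and GRCh38 (hg38), and the paper's methods name MAnorm with no version. The authors called peaks per library and deposited for each peak a fold (ratio) of IP over input, a −log10 p and a q-value. They also deposited merged peaks with a normalized signal (read density) per IP library. Their M, A and P columns hold their own comparison of the conditions and were not used.

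Exon peaks were selected by label, merged peaks by an overlap of at least 1 base, and coordinates are counted from 1. Whole reads were computed back from the densities, as density equals reads plus 1 divided by 2 kb before the MAnorm line is taken off. This gave whole reads within 0.05 in 99.998% of windows. A merged peak was called at over 2-fold with at least 20 reads over both IP libraries. A gene took its densest merged exon peak. Wilson, exact Poisson and exact (Clopper-Pearson) binomial intervals are at the 95% level. The line, the overlaps and the calls were tested on simulated data. Windows of 52.2% of merged exon peaks overlap a neighbouring window, and 5.02% of merged exon peaks also overlap a peak with another label.

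Named genes were the 10 densest, the 10 with most exon peaks, the 8 highest and 8 lowest ratios with at least 100 reads, the 5 highest folds per list, CDCP1, FOSL1, ENO1, NSUN2 and the m5C genes, and the 3 densest members of each list. Members past 2-fold were named after their values were seen. Some genes that meet these rules are not named. Members and lists were chosen with earlier results of these data known. Alternatives were a q-value below 0.05, a fold of at least 4, equal list sizes, an overlap of 50%, library sums, over 4-fold, no minimum or 50 reads, exon peaks only, and bases covered. Merged peaks called in both lists, those with no neighbouring window, read bins, windows with 1000 reads or more, sums over all windows, positions and values within genes were added after seeing the data. No genome sequence was used. Computations ran in Python 3.11.15 with scipy 1.17.1, numpy 2.4.6 and pandas 2.3.3, and plots were drawn by matplotlib 3.10.9.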

Additional observations from a re-analysis of the deposited data

How the results depend on the processing

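No paired analysis was possible because only 1 IP library exists per condition. Shares of exon peaks became 20.9% (lactate) and 22.2% (ddH2O) at a q-value below 0.05, 18.7% and 22.0% at a fold of at least 4, and 22.0% for as many ddH2O peaks as the lactate list holds. Shared exon peaks became 56.5% and 26.3% at an overlap of 50% of both peaks, and 87.2% and 46.1% at a q-value below 0.05. Shared exon genes became 81.4% and 45.0% at a fold of at least 4. The median fold over input became 4.86 and 4.85 at a q-value below 0.05.

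Merged exon peaks over 2-fold higher and lower numbered 575 and 959 with library sums, 16 and 435 at over 4-fold, 1208 and 6734 with no minimum of reads, and 54 and 755 at 50 reads. With no minimum these were 6.46% and 36.0%, against 13.9% and 38.6% of all merged peaks. At 50 reads they were 1.06% and 14.8%, against 3.71% and 11.1%. No share of all merged peaks is given at over 4-fold. The median log2 ratio of exon peaks became -0.14 with library sums, -0.52 with no minimum, -0.30 at 50 reads and -0.42 with exon peaks only. Relative to all merged peaks it became -0.26, -0.026, -0.15 and -0.22, so with no minimum of reads nearly all of the difference from all merged peaks was gone with the deposited densities, while with library sums it was -0.20. Within genes, the exon minus intron median became -0.43 with library sums, and the exon minus 3′ UTR median 0 with library sums and -0.22 with no neighbouring window. With sums over all windows, the densest included, 68 merged exon peaks (0.81%) were over 2-fold higher and 4374 (52.3%) lower, with a median log2 ratio of -1.03. Of all merged peaks, 3.94% were then higher and 37.9% lower. The cause of these changes was not tested.

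Of the 10 genes with most exon peaks, 7 were also among the 10 with most bases covered. With library sums, 15 of 20 list medians and 71 of 102 named genes kept the sign of their log2 ratio. With no minimum of reads 16 of 20 list medians kept it, and at 50 reads 19 of 20. Low depth limits single windows: the median exon window past the minimum held 23 lactate and 45 ddH2O reads, and 8361 of 18697 merged exon peaks reached it.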

Other observations

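Of the 1227 ddH2O exon peaks with a fold of at least 10, 157 (12.8%) had fewer ddH2O reads in their 2 kb window than the value of the fold, and in the lactate list this was so for 57 of 457 (12.5%). ANKRD17 had the second highest fold in the ddH2O list, 73.2, with 13 ddH2O reads in its window, and CHD5 had a fold of 42.0 in the lactate list with 11 lactate reads. In the lactate list, exon peaks with 1000 or more lactate reads had a median fold of 4.52 and those with fewer than 10 one of 3.24. Between these it was 4.28 at 10 to 50 reads, 4.26 at 50 to 200 and 3.69 at 200 to 1000. The reason was not tested.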
